A study of Mus musculus with 14 samples.

Results

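The 9 genes Angptl4, Lpl, Gpihbp1, Lmf1, Vldlr, Cd36, Fabp3, Slc27a1 and Acsl1, which take triglyceride fatty acids from plasma lipoproteins into heart cells, were followed across maps of acetylation (H3K9ac) and butyrylation (H3K9Bu) of histone H3 lysine 9 in mouse hearts. Every region whose list of nearby genes held one of these 9 symbols was taken, which gave 224 of 145601 regions. The 0% fat table, with both marks, held 73 of them, the H3K9ac table at 10 and 60% fat held 66, and the H3K9Bu table at 10 and 60% fat held 85. Each of the 9 genes had a promoter region that passed the filter on low signal in all 3 tables. The genes were chosen by their function and selected on the promoter signals of these same tables, so the values below are a description and carry no test.

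The hearts came from male C57BL/6J mice aged 12 weeks. The 3 diets drew 0, 10 or 60% of their energy from fat and were fed from 4 days before surgery until 1 week after it. The mice had sham surgery or TAC (transverse aortic constriction), which narrows the aorta and loads the left ventricle. Each of the 12 groups (6 combinations of diet and surgery for each mark) was 1 library from a pool of 3, so no difference has a replicate check and all intervals cover counting error only. The tissue was heart as a whole: fewer cells of a type and less mark per cell cannot be told apart.

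Lipoprotein lipase, the product of Lpl, cuts triglycerides of chylomicrons and very low density lipoproteins on the inner face of capillaries and releases fatty acids. Lmf1 is needed to fold the enzyme in the endoplasmic reticulum, Gpihbp1 carries it across the endothelial cell and holds it there, and Angptl4 inactivates it. Angptl4 is a known target of the PPAR nuclear receptors, which bind fatty acids. Vldlr takes up triglyceride-rich particles, Cd36 and Slc27a1 (FATP1) help fatty acids into the cell, Fabp3 carries them in the cytosol, and Acsl1 joins them to coenzyme A as the main long-chain acyl-CoA synthetase of heart.

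The signal of a region is its mean density of tags as the authors deposited it, on mm10 coordinates, and is compared only within a table. Estimated tags in the regions came to between 2543841 and 9163220 per library. A ratio is log2 of the signals plus 1, printed after subtracting the median over all gene promoters, and its 95% interval from counting error follows in parentheses. A promoter was counted as higher or lower past 1.5-fold. The sham 10% fat H3K9Bu library stood apart from the other 3 of its table, with a median promoter signal of 46.7 against 17.2 to 23.7, and every H3K9Bu ratio at 10 and 60% fat that uses it rests on that library. Cardiomyocyte markers (11 of 12 measured) had a median percentile between 70.2 and 72.8 in the 3 sham H3K9ac libraries, and the adipocyte list (3 or 4 of 8 measured) had medians of 88.5, 74.9 and 82.1 there at 0, 10 and 60% fat. The adipocyte genes Adipoq, Plin1, Lep and Retn and the brown adipocyte gene Ucp1 had no promoter region over the filter in any table.

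Lpl carried the highest H3K9ac of the 9 promoters in all 3 sham libraries. Its main region, chr8:68879366-68884756 in the H3K9ac table at 10 and 60% fat, spans the gene start and holds a pair of CpG islands. There its signal was 123 in the sham 10% fat library, 119 in the sham 60%, 100.2 in the TAC 10% and 88.1 in the TAC 60% library. At 0% fat it was 114 after sham and 102 after TAC. Both diets show the TAC library below the sham library, and only in the TAC 60% fat library did another member, Angptl4, lie above Lpl. Among all gene promoters of its library Lpl stood at percentile 99.1, 99.6 and 99.8 in the sham hearts at 0, 10 and 60% fat. After TAC these were 92.5, 96.3 and 87.1.

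The other promoters spread over a wide range of H3K9ac in sham hearts. At 10% fat, Fabp3 (chr4:130306569-130314156) had a signal of 91.8, Vldlr 84.0, Gpihbp1 76.1, Acsl1 75.0, Cd36 71.4, Lmf1 67.8 and Slc27a1 66.0. Angptl4 was lowest of the 9, at 54.4 (chr17:33778466-33782981, with 1 CpG island). Neighbours in this order such as Gpihbp1 and Acsl1, or Lmf1 and Slc27a1, lie close together, and with 1 library a group their order is not established. Regions also differed in length, from 1491 bp for Lmf1 to 7587 bp for Fabp3, and the Fabp3, Slc27a1 and Lmf1 regions are listed for neighbouring genes as well.

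**Figure D1:**
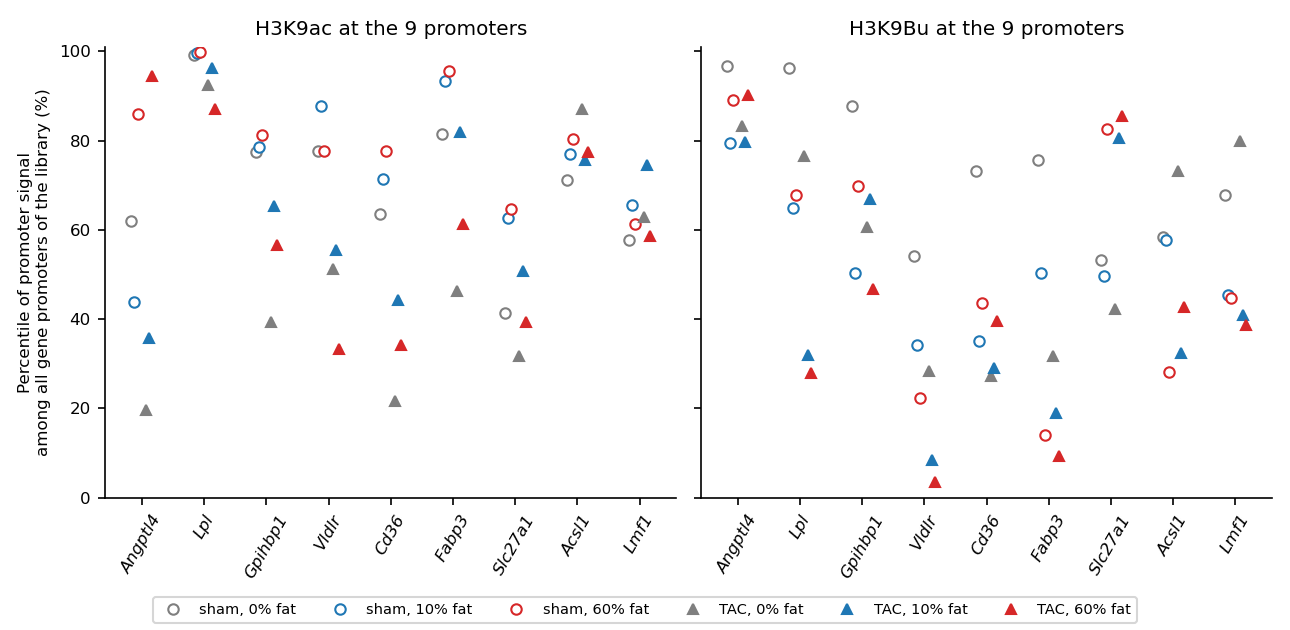
Percentile of the promoter signal of each of the 9 genes among all gene promoters of the same library (y axis, %), for H3K9ac (left) and H3K9Bu (right). Open circles are sham and filled triangles TAC libraries, coloured by dietary fat, 1 library each. Lpl H3K9ac lies above percentile 87.1 in every library, and Angptl4 H3K9ac ranges from 19.6 to 94.4.

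Between the 10 and 60% fat diets, the Angptl4 promoter differed in H3K9ac more than that of any other member. H3K9ac at Angptl4 had a signal of 54.4 (sham) and 51.5 (TAC) at 10% fat. At 60% fat it had 78.8 (sham) and 97.5 (TAC). Both 60% fat libraries lay above both 10% fat libraries, and the TAC 60% fat library was highest. The fold between diets was 1.45 in sham hearts, a relative log2 ratio of 0.59 (0.48 to 0.71), and 1.89 after TAC, a relative log2 ratio of 0.86 (0.77 to 0.99). These were the 43rd and the 10th highest of 14007 promoters, and the percentile of Angptl4 went from 43.9 to 86.0 in sham hearts and from 35.9 to 94.4 after TAC.

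Angptl4 was the 1 member past 1.5-fold in either diet comparison of H3K9ac. In sham hearts it lay just past that limit and was under it without centring (0.53), with lowess centring (0.58), with a pseudocount of 5 (0.55), with peak signal (0.27) and with the mean over all its regions (0.49). After TAC it stayed past the limit under all 9 alternatives. In sham hearts 0.314% of 14007 promoters were higher at 60% than at 10% fat and 0.543% lower. After TAC 0.607% were higher and 0.543% lower. The median of the 9 was 0.04 in sham hearts, with 7 above 0, and -0.18 after TAC, with 7 below 0. The 8 promoters other than Angptl4 lay between -0.15 (Vldlr) and 0.08 (Cd36) in sham hearts and between -0.36 (Vldlr) and 0.02 (Acsl1) after TAC. Lpl, whose product Angptl4 inhibits, stood at 0.02 (-0.05 to 0.10) in sham hearts and -0.23 (-0.32 to -0.15) after TAC. Cardiomyocyte markers had medians of -0.13 and -0.26 in the same comparisons and endothelial markers 0.06 and 0.10, and their part in these values was not tested.

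Set against Lpl in the same library, the Angptl4 H3K9ac signal was 0.444 of the Lpl signal in sham hearts at 10% fat and 0.514 after TAC. At 60% fat it was 0.661 in sham hearts and 1.11 after TAC. At 0% fat it was 0.562 and 0.439. Of the 6 H3K9ac libraries, the promoter of the inhibitor thus lay above that of the enzyme in the TAC 60% fat library only. For H3K9Bu the ratio was above 1 in all 6 libraries, from 1.02 to 1.78.

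**Figure D2:**
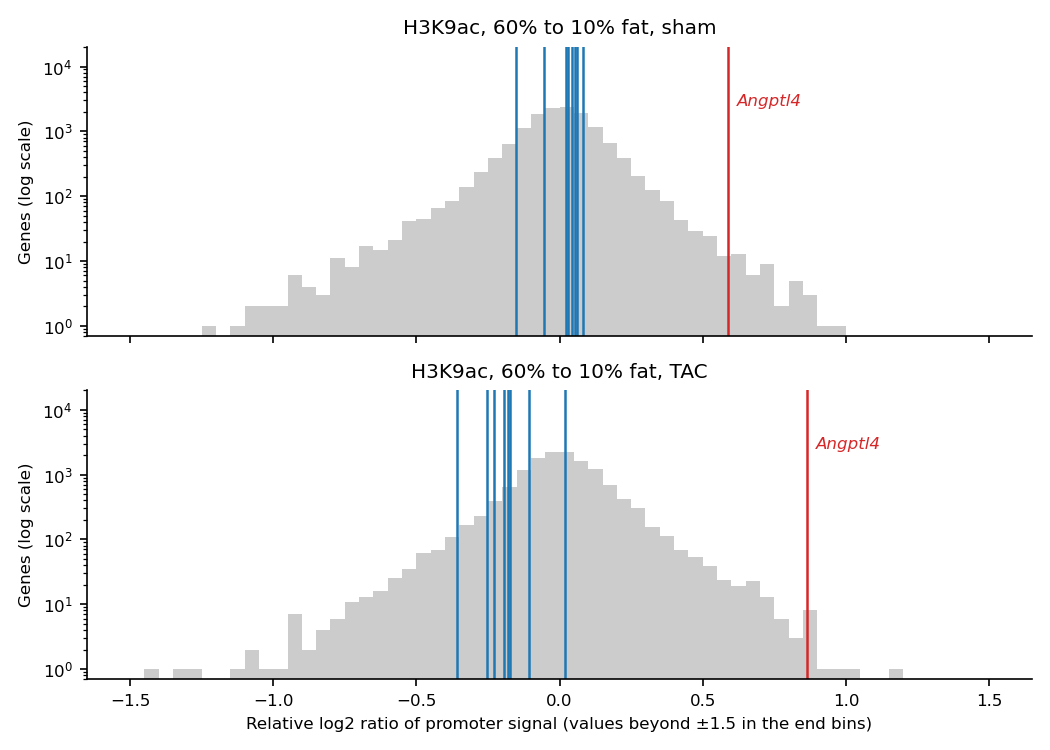
Number of genes (y axis, log scale) by relative log2 ratio of promoter H3K9ac at 60% to 10% fat (x axis), in sham (top) and TAC hearts (bottom). Grey bars are all 14007 gene promoters, blue lines the 8 other members and the red line Angptl4, at 0.59 and 0.86, apart from the others.

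Smaller regions beside the main Angptl4 region are given as values only. Inside the gene, chr17:33777774-33778374, with a mean signal under the filter, was called by the authors in both 60% fat H3K9ac libraries and in neither 10% fat library, at 22.8 (sham) and 18.3 (TAC) against 8.10 and 9.89. It is among the merged regions through its 60% fat calls alone, so its order of diets adds no support. Upstream, chr17:33782987-33783882 had 19.5 (sham) and 29.0 (TAC) at 60% fat against 18.3 and 21.9 at 10%. There the sham libraries of both diets lay close together.

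With the main settings, H3K9Bu at the Angptl4 promoter did not show a diet difference of that size. Its main region in the H3K9Bu table at 10 and 60% fat, chr17:33778506-33781632, had a signal of 59.7 (sham) and 29.6 (TAC) at 10% fat and 32.6 (sham) and 25.7 (TAC) at 60% fat. The sham 10% fat library, which is high at most promoters, was highest. Relative to all promoters the ratio of 60% to 10% fat was 0.21 (0.02 to 0.36) in sham hearts and 0.24 (0.02 to 0.44) after TAC, and as deposited it was -0.85 and -0.20, so its sign depends on the centring. Over all settings the ratio ranged from -0.85 to 0.97 in sham hearts and from -0.20 to 0.32 after TAC, so its size depends on the setting. Its percentile was 79.5 at 10% and 89.1 at 60% fat in sham hearts, and 79.8 and 90.1 after TAC. The Angptl4 log2 ratio for H3K9ac was above 0 with and without centring. Smaller H3K9Bu regions went both ways in sham hearts. At chr17:33776915-33777122, chr17:33777853-33778304 and chr17:33784212-33784432 the signals were 28.9, 32.7 and 27.4 at 60% against 8.57, 15.6 and 7.86 at 10% fat. These were called at 60% fat only, so their order of diets adds no support. The regions chr17:33781791-33782938 and chr17:33783500-33783941 had 26.1 and 25.3 at 60% against 36.25 and 32.8 at 10% fat.

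With the main settings, no member was past 1.5-fold in the diet comparisons of H3K9Bu. In sham hearts 11.6% of 12046 promoters were higher at 60% fat and 2.57% lower, and after TAC 4.80% were higher and 2.56% lower. The members lay between -0.40 (Fabp3) and 0.45 (Slc27a1, interval -0.22 to 1.02) in sham hearts and between -0.27 (Vldlr) and 0.24 (Angptl4) after TAC. The Slc27a1 and Cd36 regions of this table are narrow, 287 and 852 bp, and their intervals are correspondingly wide.

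**Figure D3:**
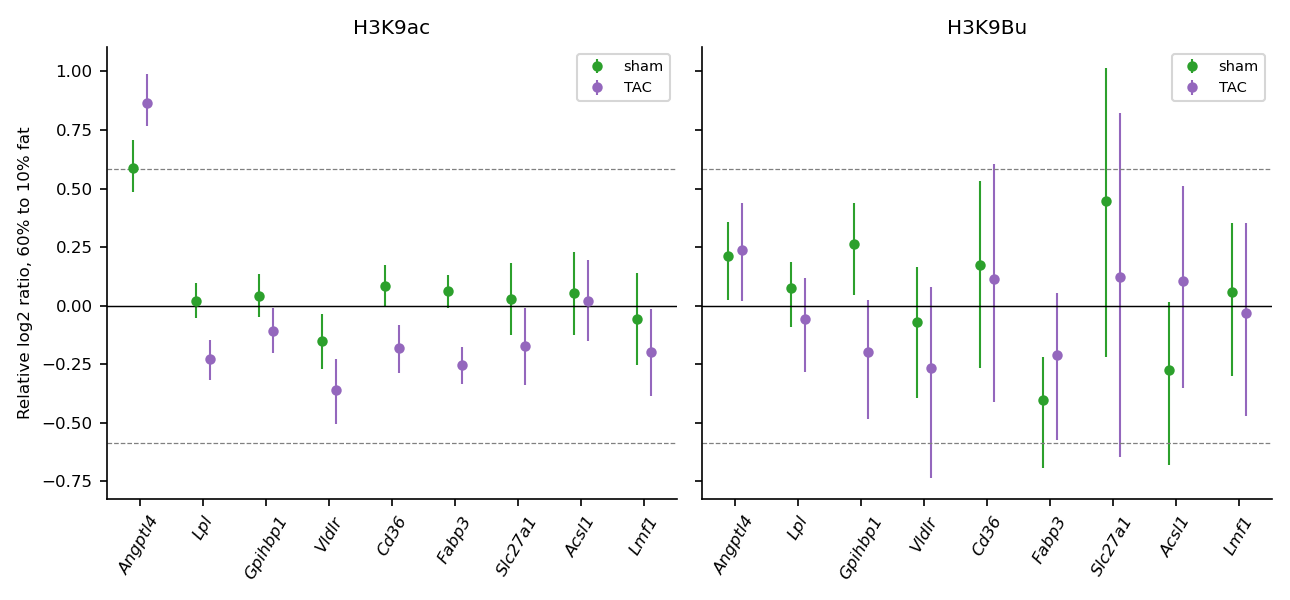
Relative log2 ratio of promoter signal at 60% to 10% fat (y axis) for the 9 genes, H3K9ac (left) and H3K9Bu (right), in sham (green) and TAC hearts (purple). Bars are 95% counting intervals and dashed lines mark 1.5-fold. Angptl4 H3K9ac reaches 0.59 and 0.86, and no other point passes a dashed line.

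TAC went with less H3K9ac at most of the other promoters, relative to all genes. The fatty acid translocase Cd36 (chr5:17882788-17889238) had 71.4 in sham and 57.3 in TAC hearts at 10% fat and 72.4 and 52.0 at 60% fat. At 0% fat it had 64.7 and 46.7. Its relative log2 ratios of TAC to sham were -0.71 (-0.82 to -0.62), -0.37 (-0.47 to -0.28) and -0.63 (-0.74 to -0.55) at 0, 10 and 60% fat. The sham value was above the TAC value at each diet.

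Lpl had ratios of -0.41 (-0.49 to -0.32), -0.35 (-0.43 to -0.27) and -0.60 (-0.68 to -0.52) at 0, 10 and 60% fat. Gpihbp1, the endothelial anchor of the enzyme, had -0.53, -0.18 and -0.33 at the same diets. Lmf1, its folding factor, had 0.03, 0.10 and -0.04, and each of these 3 intervals included 0. The ratios of the enzyme and its anchor were thus below that of the median promoter at each diet, and those of the folding factor were near it.

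Vldlr, the lipoprotein receptor, had ratios of -0.37, -0.44 and -0.65, with signals of 72.3 in sham and 51.4 in TAC hearts at 60% fat. Fabp3, the cytosolic carrier, had -0.48, -0.24 and -0.55, with signals of 91.6 and 69.8 at 60% fat. Slc27a1 had -0.19, -0.16 and -0.36. For Lpl, Gpihbp1, Vldlr, Cd36 and Fabp3 the signal as deposited was also lower after TAC at all 3 diets, whereas for Slc27a1 at 0% fat it was higher, 55.0 against 52.4. Acsl1 had 0.19 (0.02 to 0.37), -0.03 (-0.21 to 0.15) and -0.06 (-0.24 to 0.12), with 69.2 in sham and 94.5 in TAC hearts at 0% fat. Its ratio was the highest of the 9 at 0% fat, and its regions are described further on.

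Counted past 1.5-fold, 2 of 9 promoters were lower after TAC at 0% fat (Angptl4 and Cd36), beside 3.42% of 13666 promoters, and none was higher, beside 4.61%. At 10% fat none of the 9 was past the fold, beside 0.564% lower and 0.778% higher of 14007. At 60% fat 3 of 9 were lower (Vldlr, Cd36 and Lpl), beside 1.47%, and none higher, beside 2.42%. As deposited, without centring, none of these 5 values was past 1.5-fold, with -0.50 for Angptl4 and -0.46 for Cd36 at 0% fat and -0.48, -0.47 and -0.43 for Vldlr, Cd36 and Lpl at 60% fat. With peak signal Angptl4 (-0.26), Vldlr (-0.45) and Lpl (-0.52) were also under the limit, with the mean over all regions of a gene Angptl4 (-0.52) and Cd36 at 60% fat (-0.50), and Lpl also with lowess centring (-0.56) and a pseudocount of 5 (-0.57). Medians of the 9 were -0.41, -0.18 and -0.36. Cardiomyocyte markers were also below 0, with medians of -0.29, -0.26 and -0.42 and with 11, 9 and 10 of 11 measured genes below 0 at 0, 10 and 60% fat. Their summed H3K9ac signal at 60% fat was 703 in sham and 598 in TAC hearts, and their part in the members' values was not tested. Endothelial markers had medians of -0.36, 0.04 and 0.08. Macrophage markers had 0.94 (5 of 6 past 1.5-fold higher), -0.09 (none of 8) and 0.37 (3 of 8 past it), and their part was not tested either.

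Angptl4 did not share this pattern across diets. Its H3K9ac signal at 0% fat was 63.9 in sham and 44.9 in TAC hearts, a ratio of -0.75 (-0.88 to -0.64), the 194th lowest of 13666 promoters. At 10% fat the ratio was -0.14 (-0.26 to -0.02), the 2057th lowest of 14007, and at 60% fat 0.14 (0.05 to 0.24), the 3374th highest of 14007. The sign of these 3 values was the same without centring. The ratio of TAC to sham was thus higher at 60% than at 10% fat by 0.28, whereas for the 8 other members the same difference was below 0, from -0.03 (Acsl1) to -0.31 (Fabp3). Among all 14007 promoters the Angptl4 difference was the 1218th highest, so it was not extreme. These differences of ratios have no test. They use the same libraries as the ratios of 60% to 10% fat above, so they are not a separate observation.

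**Figure D4:**
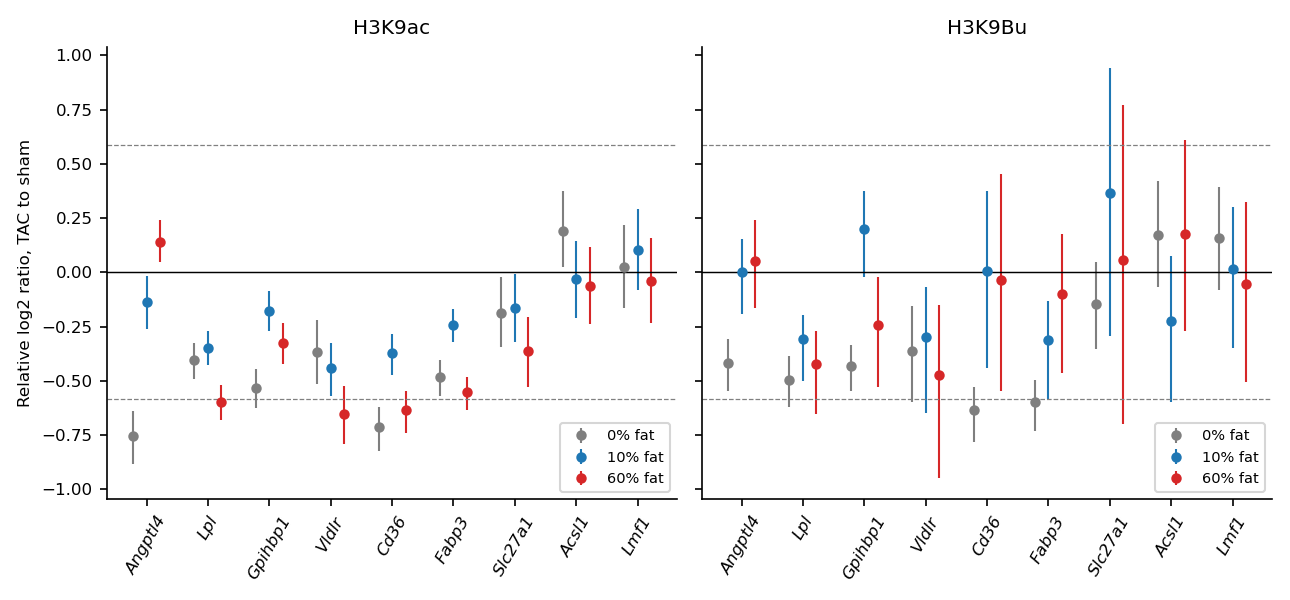
Relative log2 ratio of promoter signal, TAC to sham (y axis), for the 9 genes at 0% (grey), 10% (blue) and 60% fat (red), H3K9ac (left) and H3K9Bu (right). Bars are 95% counting intervals and dashed lines mark 1.5-fold. Angptl4 H3K9ac goes from -0.75 at 0% to 0.14 at 60% fat, while Lpl, Vldlr, Cd36 and Fabp3 H3K9ac lie below 0 at each diet.

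H3K9Bu at 0% fat gave a similar picture for TAC. Cd36 had a signal of 45.7 in sham and 27.7 in TAC hearts, a ratio of -0.64 (-0.78 to -0.53), and Fabp3 46.9 and 29.2, a ratio of -0.60 (-0.73 to -0.50). Lpl stood at -0.49, Gpihbp1 at -0.43, Angptl4 at -0.42, Vldlr at -0.36 and Slc27a1 at -0.15, whereas Acsl1 and Lmf1 stood at 0.17 and 0.16. Cd36 and Fabp3 were past 1.5-fold, 2 of 9, beside 1.22% of 13666 promoters lower, and none was higher, beside 2.37%. Over the settings Cd36 ranged from -0.71 to -0.57 and Fabp3 from -0.67 to -0.33, so each fell under the limit with some of them. The median of the 9 was -0.42, that of the cardiomyocyte markers -0.45 and that of the macrophage markers 0.81.

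At 10 and 60% fat the H3K9Bu ratios of TAC to sham had medians of 0.00 and -0.05 over the 9 genes. None was past 1.5-fold, beside 1.02% lower and 8.66% higher of 12046 promoters at 10% fat and 1.71% lower and 2.50% higher at 60% fat. As deposited, all promoters together were lower after TAC at both diets, with median log2 ratios of -0.99 and -0.38. The Lpl ratio was below the median at both, at -0.31 (-0.50 to -0.20) and -0.42 (-0.65 to -0.27), and Vldlr likewise, at -0.30 (-0.65 to -0.07) and -0.47 (-0.95 to -0.15).

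The marks were compared with each other at 0% fat, where a single table holds both. With the main settings Angptl4 was the most butyrylated of the 9 relative to its acetylation. Its H3K9Bu signal was 67.7 in sham and 48.0 in TAC hearts, against 63.9 and 44.9 for H3K9ac, while Lpl had 66.4 and 44.6 against 114 and 102. The relative log2 ratio of H3K9Bu to H3K9ac at Angptl4 was 0.69 (0.58 to 0.80) in sham and 1.01 (0.89 to 1.15) in TAC hearts, and at Lpl -0.16 and -0.26. Angptl4 was the 1 member past 1.5-fold, beside 9.86% of promoters higher and 2.88% lower in sham hearts and 6.14% higher and 0.476% lower after TAC. Vldlr was the lowest, at -0.31 and -0.32. Angptl4 ranked 1026th highest of 13666 promoters in sham and 363rd in TAC hearts, and without centring it was under the limit (0.08 and 0.10). Under other settings Lpl (0.794) and Fabp3 (0.729) in sham hearts exceeded the highest value of Angptl4 under any setting (0.725). The antibodies differ, so a ratio between marks ranks promoters and does not give an amount.

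Cd36 and Acsl1 each held an H3K9ac region far inside the gene at or beside which the RefSeq promoter table (GRCm38, the build of mm10) places a transcript start. For Cd36 this was not the strongest inner region. That was chr5:17845685-17850270, with 76.3 (sham) and 66.6 (TAC) at 10% fat and 81.8 (sham) and 71.7 (TAC) at 60% fat. For Cd36 the RefSeq window of 300 bases, from 250 before to 50 after the start, lies wholly inside chr5:17831200-17838490, centred 54114 bp from the start that the deposited table uses. Acsl1 has a RefSeq window at the start used in the table and another beside chr8:46491024-46494732, which begins 9 bp past its end and is centred 21836 bp from the table's start. The 3 windows are shown because the regions at these starts differed in their response. Capitals mark GC boxes (GGGCGG on either strand) and, in Cd36, a direct repeat AGGTCANAGGTCA with 2 differences, the form that PPAR and RXR pairs bind.

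Cd36 chr5:17835847-17836146 (minus strand): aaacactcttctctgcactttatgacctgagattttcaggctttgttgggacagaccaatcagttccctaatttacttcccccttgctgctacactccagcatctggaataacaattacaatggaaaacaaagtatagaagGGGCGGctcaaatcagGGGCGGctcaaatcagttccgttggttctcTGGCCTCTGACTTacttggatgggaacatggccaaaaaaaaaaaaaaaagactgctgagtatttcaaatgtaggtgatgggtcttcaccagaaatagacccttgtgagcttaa
Acsl1 chr8:46470787-46471086 (plus strand): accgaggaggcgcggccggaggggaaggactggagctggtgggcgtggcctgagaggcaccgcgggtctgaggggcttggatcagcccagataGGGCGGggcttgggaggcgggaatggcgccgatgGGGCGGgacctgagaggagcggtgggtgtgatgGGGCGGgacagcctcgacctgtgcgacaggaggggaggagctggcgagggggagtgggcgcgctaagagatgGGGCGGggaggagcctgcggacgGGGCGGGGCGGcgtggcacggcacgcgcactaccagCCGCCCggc
Acsl1 chr8:46490716-46491015 (plus strand): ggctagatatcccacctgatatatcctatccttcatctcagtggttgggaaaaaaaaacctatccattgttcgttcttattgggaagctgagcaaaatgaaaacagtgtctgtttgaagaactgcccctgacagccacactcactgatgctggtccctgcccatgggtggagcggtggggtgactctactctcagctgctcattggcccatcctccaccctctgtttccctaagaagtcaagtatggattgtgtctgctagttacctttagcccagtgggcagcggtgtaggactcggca

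The Acsl1 window at the table's start held 7 GC boxes, some of them overlapping, with 74% G and C, and the inner window held none, with 50%. Cd36 held 2 GC boxes and the direct repeat, read on the strand opposite to the gene, starting at -63 bp from the transcript start. Of 32851 promoter windows of the same length, 35.7% held a GC box and 3.86% the repeat with up to 2 differences. The repeat without a difference was in 0.0396% of windows and in none of those of Fabp3, Cd36, Acsl1, Slc27a1, Lmf1 and Vldlr, 10 windows in all. The E-box CACGTG, in 7.15% of windows, was in 1 of the 10 (Slc27a1), and TATAAA, in 13.6%, in none. A match of letters is not a binding site.

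At the inner Cd36 start H3K9ac had 46.5 (sham) and 36.1 (TAC) at 10% fat and 57.5 (sham) and 46.9 (TAC) at 60% fat. The 60% fat value was above the 10% fat value for each surgery, with relative log2 ratios of 0.36 (0.27 to 0.47) in sham and 0.33 (0.22 to 0.45) in TAC hearts. At the region of the table's start the same ratios were 0.08 (-0.01 to 0.17) and -0.18 (-0.29 to -0.08). Of the 11 distal H3K9ac regions of Cd36, those that overlap no promoter window, 8 passed the filter on mean signal. Of these, 8 of 8 were above 0 for diet in sham hearts (median 0.38) and 7 of 8 after TAC (median 0.19), beside 4734 and 4892 of all 9488 distal regions that passed. Most of the 8 adjoin each other within chr5:17828396-17851050, so they are not independent and do not count as replicates. Among the Cd36 regions under the filter, chr5:17815920-17816184 had 14.1 at 60% and 20.4 at 10% fat in sham hearts. After TAC both Cd36 regions were lower, the inner one with ratios of TAC to sham of -0.74, -0.42 and -0.45 at 0, 10 and 60% fat.

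The Acsl1 starts differed for TAC. The inner region had H3K9ac of 63.1 (sham) and 47.0 (TAC) at 10% fat and 60.0 (sham) and 36.2 (TAC) at 60% fat. At 0% fat, chr8:46491013-46494031 had 62.1 and 48.1. Its ratios of TAC to sham were -0.61 (-0.77 to -0.47), -0.48 (-0.62 to -0.35) and -0.88 (-1.04 to -0.75) at 0, 10 and 60% fat, whereas the region at the table's start had 0.19, -0.03 and -0.06. These intervals do not overlap at any of the 3 diets. The inner region is distal, and distal regions of all genes had H3K9ac medians of -0.26, -0.11 and -0.10 at these diets. For H3K9Bu at 0% fat their median was -0.14. The part of this general offset in the Acsl1 values was not tested. For diet, the inner region had -0.01 in sham hearts and -0.41 (-0.58 to -0.27) after TAC. H3K9Bu at 0% fat showed the same contrast, -0.52 (-0.76 to -0.32) at the inner region and 0.17 (-0.07 to 0.42) at the start. In the H3K9Bu table at 10 and 60% fat the region within 100 bp of the inner window is 312 bp long. It had -0.40 (-1.36 to 0.42) and 0.56 (-0.53 to 1.67), against -0.22 and 0.18 at the start, too wide to show an order. A longer region, chr8:46491129-46492156, overlaps the inner H3K9ac region. Its H3K9Bu signals were 45.2 (sham) and 18.7 (TAC) at 10% fat and 17.5 and 9.91 at 60% fat. The region at the start had 49.6 and 20.8 at 10% fat and 19.0 and 16.3 at 60% fat.

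**Figure D5:**
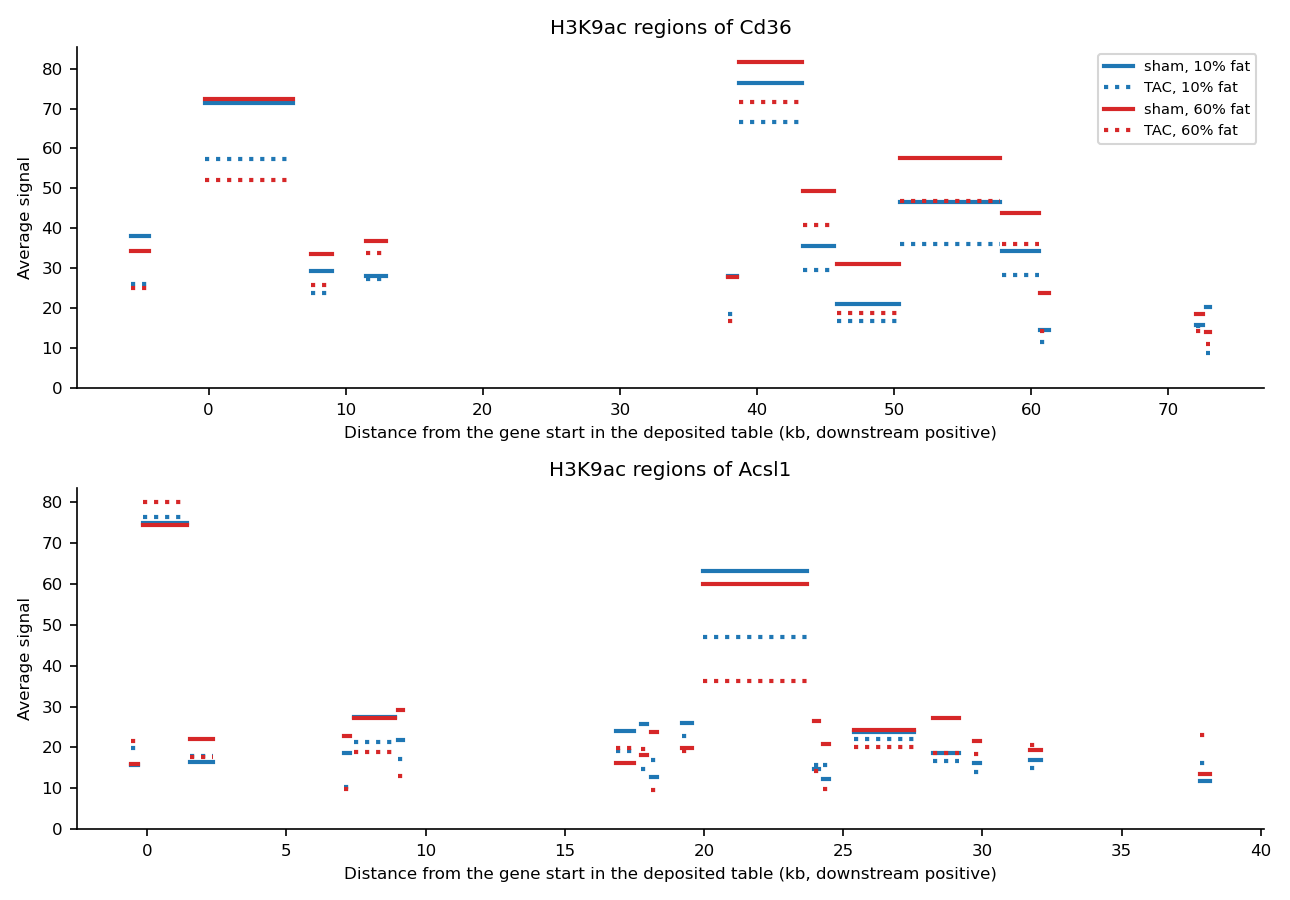
Average H3K9ac signal (y axis) of each merged region along Cd36 (top) and Acsl1 (bottom), drawn over its extent by distance from the gene start in the deposited table (x axis, kb), in the 10% (blue) and 60% fat (red) libraries, sham solid and TAC dotted. The inner Cd36 region at 46.5 (sham) and 36.1 (TAC) at 10% fat lies at 57.5 and 46.9 at 60% fat, and the inner Acsl1 region is lower in both TAC libraries.

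Distal regions of the 9 genes that passed the filter mostly had lower H3K9ac after TAC, relative to all promoters, as did most distal regions of other genes. At 0% fat 31 of 34 had a ratio of TAC to sham below that of the median promoter, beside 9878 of all 14701, and 22 were past 1.5-fold lower, which is 64.7%, beside 31.2% of all 14701 distal regions. At 10% fat 23 of 23 were below 0, beside 6063 of 9488, and 4 were past the fold, beside 7.65%. At 60% fat 22 of 23 were below 0, beside 5649 of 9488, and 9 were past the fold, beside 14.6%. Of the 34 regions 13 belong to Cd36 and 12 to Acsl1, of the 23 regions 8 and 9, and neighbouring regions of a gene are not independent. At 0% fat, 7007 regions were called in the sham H3K9ac library alone, and the median of all its distal regions was -0.26. Among those 7007 were filtered distal regions of the members, such as chr5:17839088-17839916 of Cd36 and chr8:46488775-46488989 of Acsl1. Such regions entered through the library where they are high, so lower values after TAC are in part built in, for the members and for all genes.

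Lpl had the same direction in its smaller regions. Of its 8 distal H3K9ac regions at 10 and 60% fat, 5 passed the filter on mean signal, all with ratios of TAC to sham below 0 at both diets and with medians of -0.53 and -0.99. At 0% fat 4 of 5 were below 0, with a median of -0.28. An example is chr8:68890118-68890807, inside the gene, with 27.8 (sham) and 15.8 (TAC) at 10% fat and 32.0 and 14.2 at 60% fat. It was called in both sham libraries and in neither TAC library. The regions chr8:68891076-68891284 and chr8:68903455-68903677 were called in the sham 10% fat library alone. The direction of these regions is thus in part built in by how they entered. For H3K9Bu at 0% fat, 30 of 34 distal regions of the 9 genes were below 0 after TAC, beside 9251 of 14701, and 10 were past the fold, beside 14.4%. There 8312 regions were called in the sham H3K9Bu library alone, among them chr8:68890486-68890713 of Lpl and chr8:46488101-46488673 of Acsl1. Lower H3K9Bu values after TAC are thus in part built in as well, for the members and for all genes. At 10% fat, a comparison that uses the sham library that stood apart, 20 of 34 were above 0, beside 16656 of 19402. At 60% fat 24 of 34 were below 0, beside 8907 of 19402. The same limit holds there, since 7878 regions were called in the sham 60% fat H3K9Bu library alone.

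Other genes of triglyceride hydrolysis and fatty acid uptake are given beside the share of all promoters past 1.5-fold in the same comparison and direction. Of a list of 40, promoters of 28, 29 and 24 were measured at 0% fat, in the H3K9ac table and in the H3K9Bu table at 10 and 60% fat. For H3K9ac after TAC at 0% fat 1 of 28 was higher and 1 lower, beside 4.61% and 3.42% of all promoters: Slc27a3, a very long chain acyl-CoA synthetase, at 0.70 (0.35 to 1.10) and Tcf15, a partner of Meox2 in heart endothelium that drives Cd36 and lipoprotein lipase genes in mice, at -0.91 (-1.02 to -0.82), with 73.3 in sham and 46.0 in TAC hearts. At 10% fat 1 of 29 was higher, beside 0.778%, the acyl-CoA synthetase Acsl6, at 0.74, and at 60% fat none was past the fold. For diet none was past it in sham hearts, and after TAC 1 of 29, Acsl6, was lower at 60% fat, at -0.93, beside 0.543%. List medians for these 5 H3K9ac comparisons lay between -0.09 and 0.05, beside 0 for all genes by construction.

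For H3K9Bu, none of the list was past the fold for TAC at 0% fat. At 10% fat 3 of 24 were higher after TAC, beside 8.66%, among them Apoe at 0.64 and Fabp4 at 0.59, and at 60% fat 1, beside 2.50%, Slc27a3, at 0.84. For diet 2 of 24 were higher in sham hearts, beside 11.6%, among them Fabp4 at 1.23, and 4 of 24 after TAC, beside 4.80%, among them Fabp4 at 1.08, Slc27a3 at 0.80 and Vegfb at 0.66. The Fabp4 and Apoe regions were centred at -2180 and -1626 bp from the start, and the comparisons with Fabp4 at 0.59 and 1.23 use the sham 10% fat library. Between marks at 0% fat, 1 of 28, Tcf15, was lower for H3K9Bu in sham hearts, at -0.74, beside 2.88%, and 2 of 28, the heparan sulfate proteoglycan gene Hspg2 (0.85) and the protease gene Pcsk6 (0.78), were higher after TAC, beside 6.14%. Counts of 1 to 4 on so short a list are given as values, and no result is read from them.

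The promoters most like Angptl4 in their TAC response were sought over the 6 relative log2 ratios of TAC to sham (3 diets, both marks) among 3925 other genes above the median signal in all 3 tables. The mean absolute difference from Angptl4 was 0.12 for Hrct1, 0.12 for Col4a1 and Col4a2, which share a region, 0.12 for Tusc2 and 0.13 for Ncln. Of these, Tusc2 alone also had a positive H3K9ac ratio at 60% fat, 0.13. Gpihbp1 ranked 140th in this order and Lpl 3316th. The remaining 6 members were not among the genes compared, which had to reach that signal in each table.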

How the data were processed

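The submitters' processing notes name BWA, SICER and the mm10 build, without versions. The authors joined the regions of 4 libraries in each of 3 tables and deposited an average and a peak signal, an estimated tag score, a presence mark and annotation values for each region, per the file headers. How libraries were scaled is not given in the sources used here, and the 2 pooled inputs were not used here. The estimated tag score equals signal times length over 224 for 1 of the table's libraries in 483776 of 483776 cells, and this relation gave the tags behind exact (Clopper-Pearson) 95% intervals.

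Promoter windows reached 7500 bp before and 2500 bp past each gene start. Each gene took its strongest region there, if its mean signal was at or above the table's percentile 25, and 13666, 14007 and 12046 genes remained. Log2 ratios used a pseudocount of 1. With 1 library a group, no test was made. The computation was tested on simulated data. The members and the gene lists were chosen with earlier results of these data known. Named were all 9 members, list genes past 1.5-fold (at most 6 a comparison) and the 5 patterns nearest to Angptl4; 1 list gene is counted but not reported here. Of the 9 genes, 6 matched the RefSeq promoter table (GRCm38.p6) by symbol. Analyses used Python 3.11.15, pandas 2.3.3 and scipy 1.17.1.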

Additional observations from a re-analysis of the deposited data

Results flagged for a closer look

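The H3K9ac response of the Angptl4 promoter to TAC differed in direction between diets. Its relative log2 ratio of TAC to sham was -0.75 at 0% fat and -0.14 at 10% fat, with counting intervals below 0, and 0.14 at 60% fat, with an interval above 0. At 10% fat the interval ended at -0.02 after a median of 0.06 was subtracted, so without centring it includes 0. Over all settings the 10% fat value ranged from -0.16 to -0.04. The value at 0% fat was the 194th lowest of 13666 promoters, and the value at 60% fat was only the 3374th highest of 14007. Each value rests on 1 library a group, and the difference between diets was not tested. The 0% fat libraries are in another table than those at 10 and 60% fat. No other member had intervals on opposite sides of 0 in this comparison or in the other comparisons of diets or surgeries.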

How the results depend on the processing

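No paired analysis was possible because each group has 1 library, and for the same reason no replicate could be left out. Over 12 medians of the 9 promoters, lowess centring, a pseudocount of 5, no filter and a filter at the median signal kept all 12 within a band around the main value. The band is the median half-width of the counting intervals of single promoters, and is not the counting error of a median over 9. Regions called in both libraries also kept all 12 within it, but there the H3K9Bu medians rest on 3 of the 9 genes for TAC at 60% fat, 7 for diet in sham hearts and 4 for diet after TAC, where the value was 0.08 against -0.03. Without centring, the median for TAC and H3K9ac was -0.15 at 0% and -0.20 at 60% fat. For H3K9Bu it was -0.99 for TAC at 10% fat, -0.99 for diet in sham hearts and -0.47 for diet after TAC, and for H3K9Bu against H3K9ac -0.49 in sham and -0.74 in TAC hearts. With peak signal the medians between marks were -0.19 and -0.0815, and with the mean over all regions of a gene 0.28 and 0.60. With promoter regions within 2000 bp of the start the value after TAC was -0.00444. Counts past 1.5-fold changed by over 1.5 times for 11 of 24 without centring, among them 2 to 0 and 3 to 0 lower for TAC and H3K9ac at 0 and 60% fat and 0 to 9 lower for H3K9Bu in both comparisons with the sham 10% fat library. The cause was not tested, except that leaving out the centring adds the shift of all promoters. For Angptl4, H3K9ac ratios of 60% to 10% fat ranged over all settings from 0.27 to 0.59 in sham hearts and from 0.64 to 0.91 after TAC, and of TAC to sham from 0.14 to 0.31 at 60% fat. The promoter region of Cd36 could not be used within 2000 bp in the H3K9ac comparisons, since its centre lies farther off. Total reads per library are unknown, and narrow H3K9Bu regions hold few estimated tags.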
